A study of Mus musculus with 36 samples.

Results

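The cytosolic and mitochondrial heat shock genes described here are 9 protein-coding genes chosen by name, out of 49980 RefSeq genes with coordinates (21900 of them protein-coding): Hspa8, Hspa1a, Hspa1b, Hspd1, Hspe1, Hsp90aa1, Hsp90ab1, Hsph1 and Dnajb1. TATA-binding protein (TBP), the DNA-binding core of the general transcription factor TFIID, was mapped by CUT&RUN, in which a nuclease tethered to an antibody releases the DNA around a protein. A gene was counted as bound in a list when a TBP peak summit lay within 500 bp of either of its annotated ends. The values are 4 deposited lists of TBP summits in mouse embryonic stem (ES) cells, 1 for each combination of line and treatment, named in the files as called over the matching IgG library. RT7 cells have the genotype R26CreERT2/+;Taf7flox/flox and RT10 cells R26CreERT2/+;Taf10flox/flox, so that every group carries the Cre fused to a ligand-responsive oestrogen receptor, and each line can lose a different TBP-associated factor of TFIID. Cells received ethanol (EtOH), the vehicle, or 4-hydroxytamoxifen (4-OHT), which induces the deletion, from day 1 to day 3 after plating. There were 2 TBP libraries and 1 IgG library per line and treatment, on gelatin and with leukaemia inhibitory factor and 2 kinase inhibitors in the medium. The sources used here do not say whether each line is a single clone, or whether the 2 TBP libraries were pooled for peak calling.

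Heat shock proteins are chaperones. HSP70 proteins grip unfolded chains in cycles driven by ATP, J proteins such as Dnajb1 start these cycles, and HSP110 proteins such as Hsph1 release the nucleotide. HSP90 proteins fold kinases and receptors at a later stage, and the Hspd1 barrel with its Hspe1 lid folds proteins imported into mitochondria. The constitutive members, among them Hspa8 and Hsp90ab1, are abundant in unstressed cells, while Hspa1a and Hspa1b are the classical inducible genes, controlled by the heat shock factor HSF1 through arrays of inverted nGAAn units called heat shock elements.

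The lists held 2666 summits in RT7 EtOH, 1379 in RT7 4-OHT, 3102 in RT10 EtOH and 2188 in RT10 4-OHT, with read depth unknown. The score of a summit is the authors' own −log10 q, and it was used to order summits within a list. Scores and ranks of different lists are set side by side only, as lists of different length and unknown depth show no change in binding. Each group has a single list, so that differences between treatments have no replicate check and were not tested. Of 10 ES cell marker genes, 6, 4, 7 and 4 were bound in the lists in the order above, against 5.32%, 2.74%, 5.96% and 3.87% of all protein-coding genes. No list had a summit at Pou5f1, Klf4 or Esrrb. Of 8 fibroblast markers Fn1 alone was bound, in both EtOH lists, and none of 6 markers of extra-embryonic endoderm and trophectoderm was bound in any list. The level of the deleted subunit was not analysed here.

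TBP summits lay at 8 of the 9 heat shock genes in at least 1 list, against 7.84% of protein-coding genes, and at 4 in every list. The members and the other gene lists were chosen with earlier results of these data known. The shares are over all protein-coding genes, whatever their expression, so they are given for scale and an enrichment was not tested. In RT7 EtOH 6 of the 9 genes were bound (Hspa8, Hspa1b, Hsp90aa1, Hsp90ab1, Hsph1 and Dnajb1), against 5.32% of all protein-coding genes. In RT7 4-OHT the count was 5, the same genes without Hspa1b, against 2.74% of all protein-coding genes. In RT10 EtOH 7 genes were bound by 6 summits, as Hspd1 and Hspe1 shared 1 summit, against 5.96%. In RT10 4-OHT 4 genes were bound, against 3.87%. These 4 (Hspa8, Hsp90aa1, Hsp90ab1 and Dnajb1) were bound in all 4 lists, as were 1.95% of protein-coding genes, or 24.9% of those bound in any list. Hspa1b and Hsph1 were bound in 2 lists each, Hspd1 and Hspe1 in 1, and Hspa1a in none. Of the protein-coding genes bound in any list, 37.9% were bound in exactly 1. Where a list has no summit, no peak passed the calling there, which does not show that TBP was absent.

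**Figure D1:**
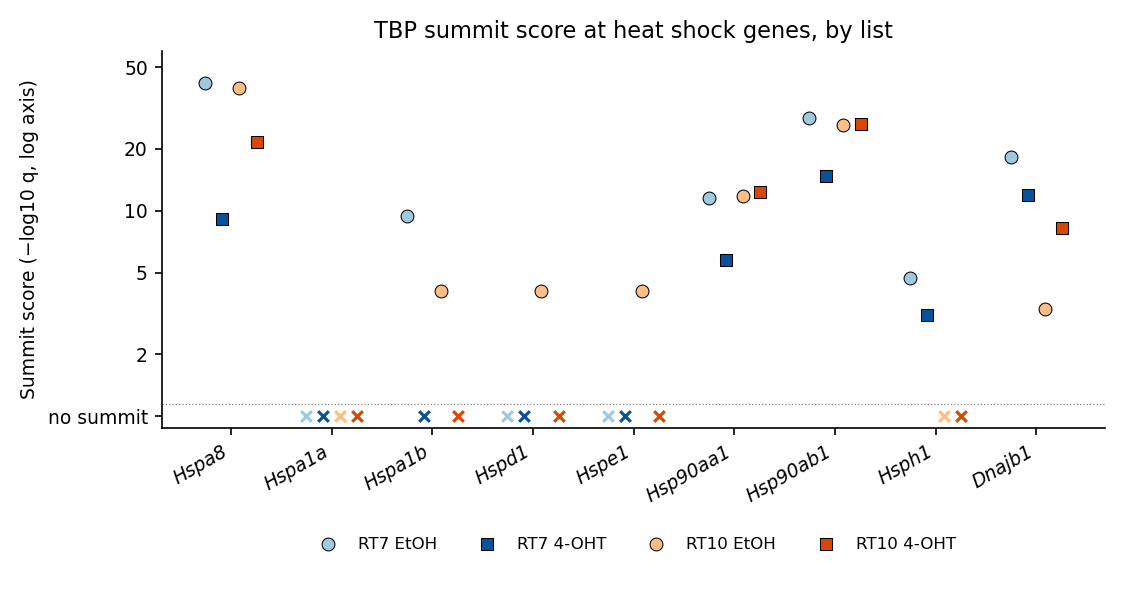
TBP summit score (−log10 q as deposited, log axis) at each of the 9 genes, with circles for EtOH and squares for 4-OHT lists, blue for RT7 and orange for RT10; crosses mark lists without a summit within 500 bp. Hspa8, Hsp90aa1, Hsp90ab1 and Dnajb1 have a summit in all 4 lists, and Hspa1a in none; Hspd1 and Hspe1 show the same summit.

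Hspa8, the constitutive cytosolic HSP70 (chromosome 9, 40801276 to 40805202, mm10), had the highest score of the 9 genes in both EtOH lists. The score was 41.7 in RT7 EtOH, 9.13 in RT7 4-OHT, 39.5 in RT10 EtOH and 21.5 in RT10 4-OHT. These scores held ranks 64 of 2666, 388 of 1379, 106 of 3102 and 218 of 2188. Both EtOH summits thus lay in the highest 5% of their lists, and neither 4-OHT summit did. All summits lay outside the gene, 88 to 230 bp from its lower-coordinate end, at positions 40801154, 40801188, 40801103 and 40801046 in the same order of lists. A further summit stood 1108 to 1219 bp outside the same end in 3 lists, with scores of 4.68 in RT7 EtOH, 4.93 in RT10 EtOH and 3.68 in RT10 4-OHT, and was not called in RT7 4-OHT.

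As ranks of unequal lists cannot be compared, the order was also read among sites present in both lists of a line, that is EtOH summits at protein-coding gene ends with a 4-OHT summit within 250 bp. RT7 had 427 such sites and RT10 555, and a site's place was its rank by score among them. This order, and the limits on the EtOH list used with it, were chosen after the values were seen. In RT7 Hspa8 held place 32 by EtOH score and 148 by 4-OHT score, or 116 places lower. A move down at least as far was seen at 11.2% of the shared RT7 sites. This share counts Hspa8 itself and sites placed too low to fall so far, and the move was not tested. Of the 62 shared RT7 sites in the highest 5% of the EtOH list, Hspa8 included, 57 scored above Hspa8 in the 4-OHT list and 4 below it. Hspa8 itself left out, 6.56% of these sites scored below it, and with the highest 10% or 20% of the EtOH list 18.5% and 39.9% did, so that the value depends on the limit. In RT10 Hspa8 held places 48 and 63, or 15 places lower, and 43.1% of the shared RT10 sites moved down at least as far. Of the 70 shared RT10 sites in the highest 5%, Hspa8 included, 22 scored below Hspa8 in 4-OHT. That is 31.9% of the sites other than Hspa8, and with the highest 10% or 20% it was 54.6% and 73.4%.

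**Figure D2:**
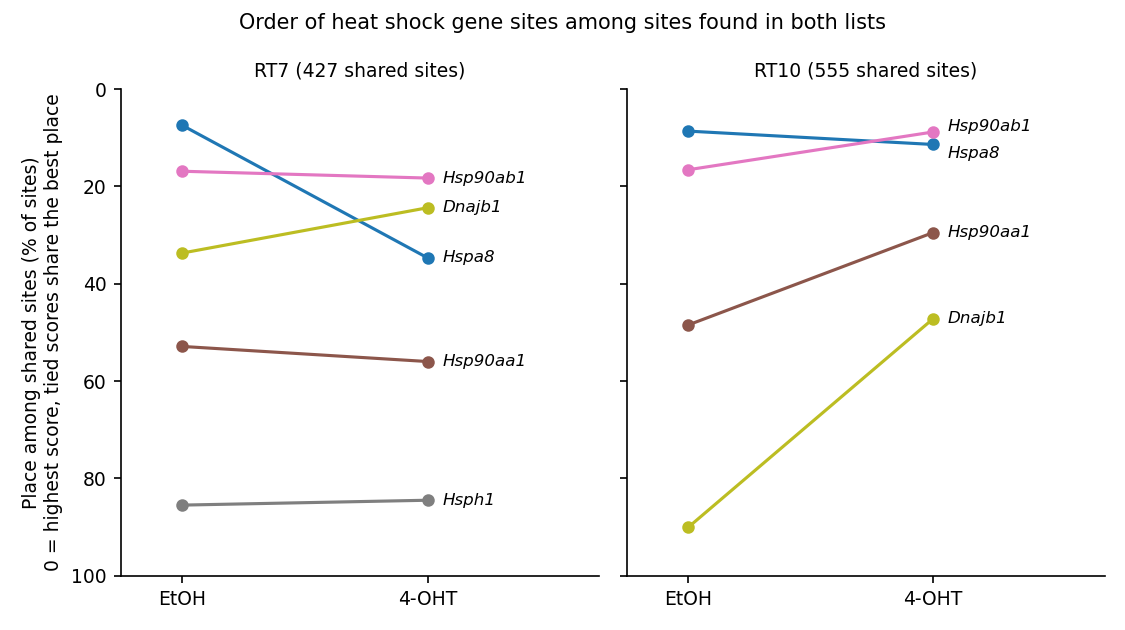
Place of the heat shock gene sites by EtOH score and by 4-OHT score among the sites found in both lists of a line (percent of 427 sites in RT7 and of 555 in RT10; the top of the axis is the highest score), with a line joining the same gene. In RT7 Hspa8 goes from 7.49% to 34.7%, and in RT10 Dnajb1 goes from 90.1% to 47.2%; the joined points come from single lists and carry no error.

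The inducible HSP70 genes Hspa1b (chromosome 17, 34956429 to 34959238, minus strand) and Hspa1a (34969359 to 34972156, minus strand) lie 10120 bp apart and are nearly identical copies. Hspa1b had a score of 9.42 in RT7 EtOH (rank 781) and 4.06 in RT10 EtOH (rank 2062). Neither 4-OHT list had a summit there, and Hspa1a had none in any list. The summits lay 239 bp (position 34959477) and 289 bp (position 34959527) upstream of the Hspa1b transcription start. The nearest summit of the 4-OHT lists to Hspa1b was 3603 bp (RT7) and 3758 bp (RT10) from its other end, beside 1110038B12Rik, a lncRNA gene (34950235 to 34952471). That neighbouring site was called in all 4 lists, with scores of 34.7 in RT7 EtOH, 21.3 in RT7 4-OHT, 35.3 in RT10 EtOH and 37.1 in RT10 4-OHT. These are above both Hspa1b scores, so the site does not show whether a weaker peak nearby would have been called.

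The start windows of both copies, from 250 bases before the start to 50 from it, are printed to show how little tells them apart (RefSeq, GRCm38.p6, the assembly of mm10; minus strand, chr17:34972107-34972406 for Hspa1a and chr17:34959189-34959488 for Hspa1b). Capitals mark the bases that differ.
Hspa1a: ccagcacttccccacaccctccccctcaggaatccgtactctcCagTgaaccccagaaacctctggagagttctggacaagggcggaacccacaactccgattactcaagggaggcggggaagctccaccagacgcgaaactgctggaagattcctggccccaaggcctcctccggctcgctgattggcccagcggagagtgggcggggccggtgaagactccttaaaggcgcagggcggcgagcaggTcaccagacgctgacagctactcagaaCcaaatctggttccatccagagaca
Hspa1b: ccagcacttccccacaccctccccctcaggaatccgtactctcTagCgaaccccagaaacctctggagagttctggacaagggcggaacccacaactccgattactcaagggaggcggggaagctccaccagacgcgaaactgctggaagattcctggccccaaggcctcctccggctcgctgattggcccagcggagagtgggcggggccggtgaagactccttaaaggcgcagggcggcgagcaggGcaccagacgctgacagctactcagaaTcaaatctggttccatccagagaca
The windows were identical at 296 of 300 bases (98.7%), with a longest identical stretch of 201 bases. The differences, counted from 1 at the 5′ end of the window with the Hspa1a base first, were C44T, T47C, T249G and C276T. The RT7 EtOH summit fell on base 12 of the Hspa1b window, and the RT10 EtOH summit fell further upstream, outside it. Reads from identical stretches could stem from either copy, and the sources used here do not say how such reads were placed. The sequence upstream of the windows, where the RT10 EtOH summit fell, was not compared between the copies. The assignment of these summits to Hspa1b, and their absence at Hspa1a, remains uncertain.

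Hsp90ab1, the constitutive cytosolic HSP90 gene (chromosome 17, 45567778 to 45573261), was bound in all 4 lists. Its scores were 28.1 in RT7 EtOH (rank 163), 14.7 in RT7 4-OHT (rank 203), 26.1 in RT10 EtOH (rank 236) and 26.4 in RT10 4-OHT (rank 168). In both 4-OHT lists and in neither EtOH list it scored above Hspa8. Among the shared sites it held places 72 and 78 in RT7 and 92 and 49 in RT10, by EtOH and 4-OHT score. Its summits varied most in position, from 133 bp (RT7 4-OHT) and 187 bp (RT7 EtOH) to 296 bp (RT10 4-OHT) and 420 bp (RT10 EtOH) outside the higher-coordinate end, a spread of 287 bp. All 4 lay inside the lncRNA gene Gm35399 (45573315 to 45574790), which begins beside that end, and belong to neither gene alone. They were nearer to an end of Gm35399, at 79 to 366 bp, than to that of Hsp90ab1. The RT10 EtOH summit, at 420 bp, was the member summit just inside the 500 bp limit. The one just outside it was a weaker Hsp90ab1 summit of RT7 EtOH, 549 bp into the gene, with a score of 3.83.

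Hsp90aa1, the stress-inducible HSP90 gene (chromosome 12, 110691036 to 110696395), had the most constant position. The 4 summits lay 54, 59, 75 and 55 bp outside its higher-coordinate end in RT7 EtOH, RT7 4-OHT, RT10 EtOH and RT10 4-OHT, a spread of 21 bp. Scores were 11.5 (rank 623), 5.76 (rank 623), 11.8 (rank 728) and 12.3 (rank 449) in the same order. By EtOH and 4-OHT score it held places 226 and 239 of the shared RT7 sites and 269 and 164 of the shared RT10 sites. It thus scored below Hsp90ab1 in every list. For scale, EtOH and 4-OHT summits at shared sites were a median of 55 bp apart in each line, with an upper quartile of 104 bp in RT7 and 109 bp in RT10.

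**Figure D3:**
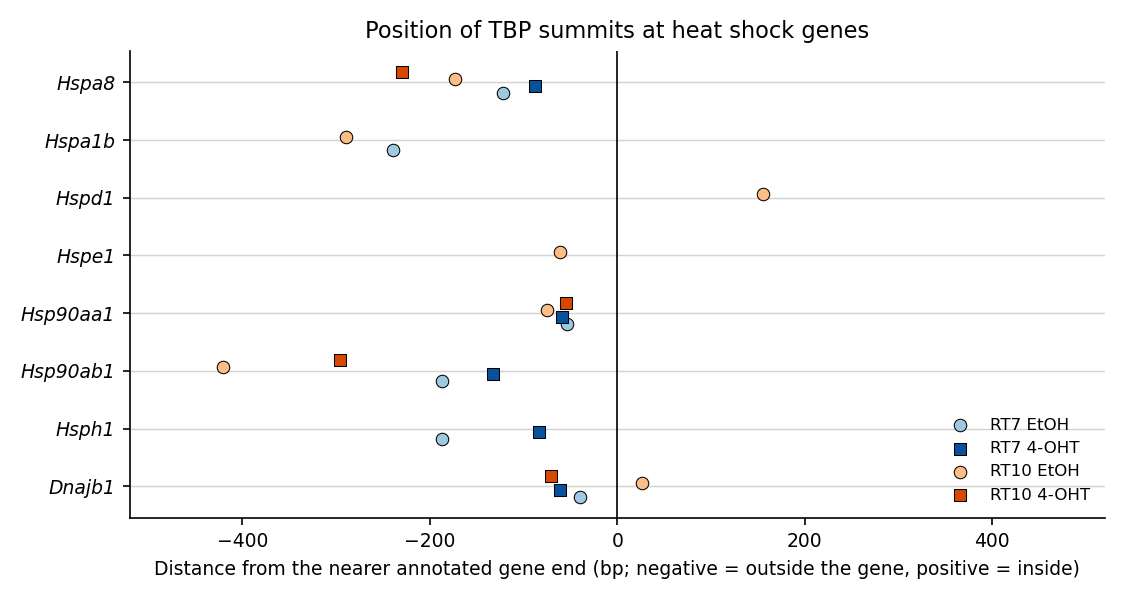
Distance of each member summit from the nearer annotated end of the gene (bp; negative values lie outside the gene, positive values inside), with circles for EtOH and squares for 4-OHT lists, blue for RT7 and orange for RT10. Hsp90aa1 summits fall within 21 bp of each other and Hsp90ab1 summits within 287 bp; Hspd1 and Hspe1 show 1 shared summit, seen from 2 gene ends.

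The mitochondrial chaperonin genes Hspd1 (chromosome 1, 55077833 to 55088243, minus strand) and Hspe1 (55088148 to 55091317, plus strand) are divergent and overlap by 96 bp in the annotation. They shared 1 summit, at position 55088087 in RT10 EtOH, with a score of 4.06 (rank 2062, a score shared by 196 summits). In the other lists the nearest summit lay 50161 to 50268 bp from Hspd1, at Sf3b1, a splicing factor gene. The shared summit was 61 bp upstream of the Hspe1 start at 55088148. It lay between the 2 annotated Hspd1 starts, 155 bp upstream of that at 55087932 and 156 bp downstream of that at 55088243. It sat beside a run of heat shock units, which the Hspe1 start window shows (plus strand, chr1:55087898-55088197), with the run in capitals.
Hspe1: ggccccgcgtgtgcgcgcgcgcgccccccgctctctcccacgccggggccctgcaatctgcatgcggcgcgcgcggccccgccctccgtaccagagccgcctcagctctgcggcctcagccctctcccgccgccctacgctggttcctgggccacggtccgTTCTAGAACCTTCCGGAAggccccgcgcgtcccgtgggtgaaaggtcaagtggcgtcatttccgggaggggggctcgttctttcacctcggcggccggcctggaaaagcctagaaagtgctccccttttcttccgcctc
The run covers bases 162 to 179 of the window, in which base 251 is the start, and the summit fell on base 190. Within it the heat shock triplet, which is the pair GAANNTTC followed directly by NNGAA, searched on both strands, matched at bases 162 to 174 and at bases 167 to 179, which overlap. Of 21263 start windows of protein-coding genes 0.517% held that triplet.

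Hsph1, the cytosolic HSP110 gene (chromosome 5, 149616843 to 149636498, minus strand), had a summit in both RT7 lists, with scores of 4.68 in EtOH (rank 1559) and 3.10 in 4-OHT (rank 1033). In RT10 the nearest summits were 5259 bp away in 4-OHT and 563723 bp away in EtOH. Whether the lines differ was not tested, and both RT7 scores were below the medians of their lists, 5.57 in EtOH and 5.52 in 4-OHT. The 2 summits were 104 bp apart, 187 bp and 83 bp outside the gene, and 349 and 245 bp upstream of the nearer start in the start table, at 149636336. By EtOH and 4-OHT score the site held places 365 and 361 of the 427 shared sites. The window of that start is printed because it, too, holds heat shock units, in capitals (minus strand, chr5:149636287-149636586).
Hsph1: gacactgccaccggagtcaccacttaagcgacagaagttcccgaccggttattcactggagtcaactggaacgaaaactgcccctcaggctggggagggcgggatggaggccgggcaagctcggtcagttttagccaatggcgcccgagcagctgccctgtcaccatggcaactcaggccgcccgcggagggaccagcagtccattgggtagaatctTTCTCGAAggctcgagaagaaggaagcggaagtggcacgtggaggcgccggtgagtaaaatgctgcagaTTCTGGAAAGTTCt
The triplet matched at bases 287 to 299, downstream of the start, and the pair TTCNNGAA, which reads the same on both strands, also at bases 218 to 225. The RT7 4-OHT summit fell on base 6, far from both. Pairs of this kind were common, in 7.61% of the start windows, as was the inverted pair GAANNTTC in 7.21%.

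Dnajb1, an HSP40 or J protein gene (chromosome 8, 83608175 to 83612653, plus strand), was bound in all 4 lists. Scores were 18.2 in RT7 EtOH (rank 339), 11.9 in RT7 4-OHT (rank 275), 3.33 in RT10 EtOH (rank 2388) and 8.24 in RT10 4-OHT (rank 758). It was the lowest-scoring member of RT10 EtOH. Among the shared sites it held places 144 and 104 in RT7, and 500 and 262 in RT10, by EtOH and 4-OHT score. A rise of at least 238 places was seen at 3.78% of the 555 shared RT10 sites, and a rise of at least 40 places at 31.4% of those of RT7. Both shares count Dnajb1 itself and sites placed too high to rise so far. At place 500 in RT10 EtOH, Dnajb1 had more room to rise than most sites. The RT10 EtOH score is that of a weak peak near the end of its list, and no other library of that group gives a value against which to check it. All 4 summits lay close to the start, 40, 61 and 71 bp upstream in RT7 EtOH, RT7 4-OHT and RT10 4-OHT and 26 bp downstream in RT10 EtOH. They also fell within 500 bp of Gm42029, a lncRNA gene (83599835 to 83607850). The start window is printed with the base under each summit in capitals, in the order RT10 4-OHT (base 180), RT7 4-OHT (190), RT7 EtOH (211) and RT10 EtOH (277) from the 5′ end (plus strand, chr8:83607925-83608224).
Dnajb1: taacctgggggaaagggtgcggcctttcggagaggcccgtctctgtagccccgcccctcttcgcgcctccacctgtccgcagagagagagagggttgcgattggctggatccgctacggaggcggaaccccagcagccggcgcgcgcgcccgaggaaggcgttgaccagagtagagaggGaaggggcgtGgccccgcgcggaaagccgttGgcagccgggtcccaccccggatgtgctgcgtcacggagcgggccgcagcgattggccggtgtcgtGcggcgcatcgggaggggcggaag
This window held neither the pairs nor the triplet, and its CCAAT boxes (CCAAT or ATTGG, in 38.2% of all windows) stood at bases 100 to 104 and 262 to 266.

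The start table had windows for 6 of the 9 genes: Hspa1a, Hspa1b, Hspd1, Hspe1, Hsph1 and Dnajb1. None of their windows held the TATA box letters TATAAA on either strand, as did 12.6% of all protein-coding start windows. The pair GAANNTTC stood in the windows of both Hspa1 copies, at bases 147 to 154, and in those of Hspd1, Hspe1 and Hsph1. The GC box GGGCGG or its complement was in a window of each of the 6 genes, and in 46.2% of all windows. These matches are letters, and show neither that a factor binds there nor, where absent, that it does not. Summits fell in the window of Dnajb1 in all 4 lists, of Hspa1b in RT7 EtOH, of Hspd1 and Hspe1 in RT10 EtOH and of Hsph1 in RT7 4-OHT. By list, 3.41%, 1.55%, 3.86% and 2.22% of all protein-coding windows held a summit in RT7 EtOH, RT7 4-OHT, RT10 EtOH and RT10 4-OHT.

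Counted as sites rather than genes, 5 of 6 RT7 EtOH summits at these genes had a 4-OHT summit within 250 bp, 5 to 104 bp away, against 42.3% of EtOH summits at protein-coding gene ends. In RT10 4 of 6 did, 20 to 124 bp away, against 49%. These shares were not matched on score, and high-scoring summits more often had a partner. Of the summits at protein-coding gene ends in the highest 5% of the EtOH list, 62 of 65 in RT7 and 70 of 72 in RT10 had one. The heat shock gene sites without a partner were Hspa1b in both lines and the shared Hspd1 and Hspe1 site in RT10. In RT10 both had the score of 4.06, and with the EtOH list shortened to the 4-OHT length they fell among the tied last scores: 3 of 5 sites had a partner with those ties taken and 3 of 3 with them left out. In RT7 Hspa1b, at rank 781, was still in an EtOH list of the 4-OHT length, where 4 of 5 sites had a partner. By gene, 44.9% of the protein-coding genes bound in RT7 EtOH were also bound in RT7 4-OHT, and 51.6% in RT10.

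Of 69 other genes of the chaperone network, 13 were bound in RT7 EtOH, 7 in RT7 4-OHT, 16 in RT10 EtOH and 5 in RT10 4-OHT, against 5.32%, 2.74%, 5.96% and 3.87% of all protein-coding genes, and 3 were bound in all lists. In RT7 9 were bound in EtOH only and 3 in 4-OHT only, and in RT10 11 and 0. Of those bound in EtOH, 4 of 13 in RT7 and 5 of 16 in RT10 were also bound in 4-OHT, against 44.9% and 51.6% of all protein-coding genes bound in EtOH. These shares were not matched on score. High-scoring EtOH summits more often had a 4-OHT partner, and 27 of the 41 network summits in the 4 lists lay below the middle of their list. When every list was shortened to 1379 summits, 5 to 6, 7, 5 and 3 network genes were bound in the order of lists above. The range reflects which tied scores were taken. The excess of EtOH over 4-OHT was thus lost in RT7. Hspa9, the mitochondrial HSP70, Stip1, which joins HSP70 to HSP90, and Cct7, a subunit of the cytosolic chaperonin TRiC, were the genes bound in all lists. The highest scores were those of Hspa2, a testis-enriched HSP70 (18.2), and Stip1 (17.1) in RT7 EtOH, of Lonp1, a mitochondrial protease (16.3), in RT10 EtOH, and of Cct7 (12.3) in RT10 4-OHT. Hspa2 (6.24) led the RT7 4-OHT list, and the Hspa2 summits, 452 to 476 bp from its end, were shared with 4930426I24Rik. The Cct7 summits were shared with Pradc1 and the Lonp1 summits with Catsperd.

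Genes bound in EtOH only were led in RT7 by Hspbp1, an HSP70 exchange factor (9.42), Cct3, of TRiC (5.57), Lonp1 (4.31), Bag1, an exchange factor (3.83), and Hspb6, a small HSP (3.22). In RT10 they were led by Lonp1 (16.3), Hspa2 (11.3), Dnaja1, a J protein (8.97), Hspb8, a small HSP (8.28), Dnajc7, a J protein (4.93), and Hspb6 (4.85). Hspb8 (3.95), Hspb1, a small HSP (2.01), and Clpp, a mitochondrial protease (1.53), were bound in RT7 4-OHT and not in RT7 EtOH. Several of these summits also lay within 500 bp of an end of another gene. Cct3 shared its summits with Tsacc, Bag1 with Chmp5, Hspb6 with Proser3, Dnaja1 with Gm6297 and Clpp with Gm33509. Hsf1 and Hsf2, the heat shock factor genes, and Hsbp1 had no summit in any list. Among the shared sites Stip1 held places 161 and 278 of 427 in RT7 and 449 and 250 of 555 in RT10, by EtOH and 4-OHT score. Of 14 chaperone genes of the endoplasmic reticulum, 6, 3, 6 and 4 were bound in the 4 lists, against 5.32%, 2.74%, 5.96% and 3.87% of all protein-coding genes. Calr, which encodes calreticulin, had scores of 107 to 144, above every heat shock gene here, and Hspa5, the HSP70 of that compartment, was bound in all lists at 11.9 to 21.8. The Calr summits were shared with 1700122E12Rik.

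**Figure D4:**
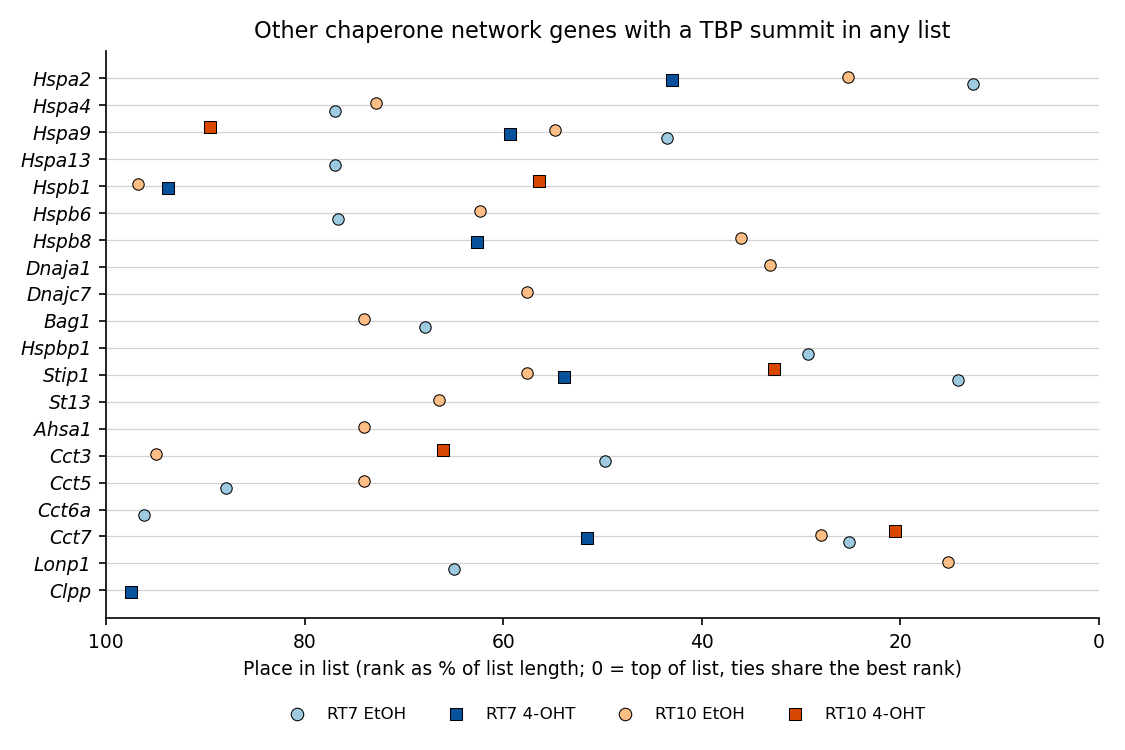
Place in its list (rank as percent of list length; the right edge is the top of the list) of the TBP summit at each of the 20 other chaperone network genes bound in any list, with circles for EtOH and squares for 4-OHT lists, blue for RT7 and orange for RT10. Of the 41 summits 27 lie below the middle (50%) of their list, and Hspa9, Stip1 and Cct7 have a point from each of the 4 lists.

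For each gene bound in all 4 lists, the protein-coding genes with the most similar places in the lists were found among 427 genes bound in all of them, by the mean absolute difference of the rank in percent of list length over the 4 lists. For Hspa8 they were Ccdc115 and Imp4, which share a summit, at 3.31 percentage points. For Hsp90aa1 they were Cct7 and Pradc1, which share a summit, at 3.20 points. The nearest genes to Hsp90ab1 were Pcgf2 (1.12 points) and Lrpprc (1.78 points). Dnajb1 had no gene as close, with Prrc2a at 7.49 and Rab13 at 8.10 points.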

How the data were processed

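TBP CUT&RUN was analysed as 4 deposited lists of peak summits. The deposited score is the −log10 q-value at each summit, made by the authors from TBP against IgG according to the peak names (lowest 1.30). Per the submitters' processing notes, cutadapt 4.0, Bowtie2 2.4.4, SAMtools 1.15.1, bedtools, deepTools and MACS2 2.2.7.1 were used with build mm10; roles, parameters, threshold and use of the yeast spike-in are not given in the sources used here. The title and the treatment label disagree for 2 IgG libraries (titled RT7 EtOH and RT10 4-OHT), whose titles were followed, as in the peak names. Scores are coarse (273 to 575 distinct values per list), and tied scores share the best rank. Read depth is unknown, so no interval from depth is given.

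Summits (1-based) were matched to both ends of RefSeq genes (GRCm38.p6), of which all 9 members matched. Starts, strands and sequences came from a RefSeq start table of that build. The members and gene lists, and the settings, were chosen with earlier results of these data known. Named genes were all members, genes sharing their summits, the highest-scoring and treatment-specific genes of the network list, and the most similar genes. Calculations used Python 3.11.15, NumPy 2.4.6 and pandas 2.3.3, with figures by matplotlib 3.10.9. The matching code was checked on simulated lists of 200 summits planted within 500 bp of gene ends, all 200 of which were found. This checks the code and not the assignment of summits to genes. Alternatives were other distances, scores of at least 10, lists of equal length and starts only.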

Additional observations from a re-analysis of the deposited data

Results flagged for a closer look

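Hsp90aa1 and Hsp90ab1 went opposite ways in the 2 lines in their place among the shared sites, by EtOH and 4-OHT score. Hsp90aa1 went from 52.9% to 56.0% of the sites in RT7 and from 48.5% to 29.5% in RT10, a difference between the lines of 22.1 percentage points. Hsp90ab1 went from 16.9% to 18.3% in RT7 and from 16.6% to 8.83% in RT10, a difference of 9.17 points. The difference was not tested, as each line and treatment has 1 list. The RT7 moves, of 13 and 6 places, are small beside the median move of 53 places, in either direction, of the shared RT7 sites. The RT10 moves were 105 places for Hsp90aa1 and 43 places for Hsp90ab1, beside a median of 88 places. Of the shared RT10 sites, 22.9% and 35.7% rose at least as far, with sites placed too high to do so counted in. Opposite moves were not particular to the HSP90 genes. Stip1 went from 37.7% to 65.1% in RT7 and from 80.9% to 45.0% in RT10. Hspa9 went from 75.6% to 70.3% in RT7 and from 78.6% to 92.8% in RT10.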

How the results depend on the processing

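With scores of at least 10, RT7 4-OHT had 2 bound members and RT10 EtOH 3, and in RT7 2 EtOH summits had a 4-OHT partner. With every list shortened to 1379 summits, RT10 EtOH had 3 bound members, whether tied scores were taken or left out. Counting transcription starts only, the counts were 3, 2, 4 and 1 in RT7 EtOH, RT7 4-OHT, RT10 EtOH and RT10 4-OHT, because only 6 of the 9 genes have a start in the table; by either end the same 6 gave the same counts. The other 31 alternative counts over members stayed within 1.5 times the reported ones. At 250 bp Hsp90ab1 was bound in 2 lists and Hspa1b in 1. With scores of at least 10, of the 4 genes bound in every list only Hsp90ab1 was still in all 4, with Hspa8 and Hsp90aa1 in 3 and Dnajb1 in 2, and the other members in 0. With lists of equal length Dnajb1 was in 3, Hsph1 and Hspa1b in 1, and Hspd1 and Hspe1 in 0. The order of RT10 EtOH (7 bound) above RT10 4-OHT (4 bound) thus held at every distance to either gene end and was lost with lists of equal length (3 and 4) and with scores of at least 10 (3 and 3). Leaving out a library was not run, since each group has 1 list. No paired analysis was possible because the lists carry no replicate numbers. Read depth, which is unknown, limits what a missing summit can show.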

Other observations

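The heat shock triplet, the pair GAANNTTC followed directly by NNGAA on either strand, stood in 110 start windows of 104 protein-coding genes, and 13 of these genes (12.5%) had a summit in such a window in at least 1 list, against 6.44% of all 17492 protein-coding genes with a start window. By list the numbers were 6 (RT7 EtOH), 6 (RT7 4-OHT), 9 (RT10 EtOH) and 6 (RT10 4-OHT) of the 104 genes, against 3.92%, 1.76%, 4.40% and 2.54% of all genes. A higher share was not particular to the triplet. In RT7 EtOH 5.26% of windows with the GC box held a summit, against 1.83% of those without it. For the CCAAT box the shares were 5.25% and 2.28%, and for the pair GAANNTTC alone 3.52% and 3.41%. A summit in the window was found at the histone genes H2ac6, H2ac7 and H2bc7 in all 4 lists, at Hnrnpa2b1, which encodes an RNA-binding protein, and at Rps18, a ribosomal protein gene, in 3, and at Vps52 in 2. Hspd1, Hspe1 and Hsph1, with Cep57, Sf3b2, Tra2b and Uchl1, had a summit in the window in 1 list each; the other Hsph1 summit lay outside it. Genes with a shared window or cluster, such as Hspd1 with Hspe1 and the histone genes, are not independent, and no test of this count was run. These genes were named after their values were seen.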
